A study of Mus musculus with 16 samples.

Results

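The genes described here encode 10 FK506-binding proteins (FKBPs), the protein family that contains the cellular receptor for rapamycin: Fkbp1a, Fkbp1b, Fkbp2, Fkbp3, Fkbp4, Fkbp7, Fkbp8, Fkbp9, Fkbp10 and Fkbp15. They were taken by symbol from the 47593 genes of the deposited count table, each matched 1 entry, and all 10 were among the 16553 genes with enough read pairs to be tested. The study fed rapamycin to 5xFAD mice, a model of amyloid pathology, and sequenced messenger RNA of the cortex in 16 libraries. Heterozygous 5xFAD mice on a C57BL/6-SJL hybrid background carry mutant human transgenes driven by the Thy-1 promoter, which is active in neurons, and every group carried them. From 2 months of age until 5 months, when the cortex was taken, mice received either chow with encapsulated rapamycin or vehicle chow with the capsule material alone. Each combination of sex and diet had 4 libraries, and the labels place 11 of them in batch 1 and 5 in batch 2. No wild-type mice were among these libraries, so the comparison of diets is within the transgenic background.

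FKBPs are peptidyl-prolyl isomerases, enzymes that turn the peptide bond before a proline and so help proteins fold or change shape. Rapamycin acts by first binding FKBP12, the product of Fkbp1a, and the resulting pair of drug and protein then docks on mTOR, the kinase that couples nutrients to growth. The related drug FK506 uses the same receptor to block the phosphatase calcineurin. Several other FKBPs work as co-chaperones of Hsp90, as folding enzymes of the endoplasmic reticulum (ER) or as anchors on membranes.

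The closest relatives among the 10 genes are Fkbp1a and Fkbp1b, whose products FKBP12 and FKBP12.6 both bind rapamycin. Fkbp1a lies on the plus strand at chr2:151542483-151561692 and Fkbp1b on the minus strand at chr12:4833175-4841595, in the coordinates of the deposited table (mm10). Their open reading frames, read from GENCODE M21 transcripts, had the same length of 327 bases and were identical at 245 of them (74.9%). The first 120 coding bases of each are shown because this similarity decides whether reads can be told apart, with the 25 bases that differ in capitals.
Fkbp1a: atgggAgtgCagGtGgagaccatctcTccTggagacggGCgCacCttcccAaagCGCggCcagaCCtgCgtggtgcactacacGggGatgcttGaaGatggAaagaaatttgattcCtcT
Fkbp1b: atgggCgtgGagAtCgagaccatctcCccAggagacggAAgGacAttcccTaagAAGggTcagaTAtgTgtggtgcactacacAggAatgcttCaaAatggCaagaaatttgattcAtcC
The longest stretch the 2 reading frames shared was 14 bases, aagaaatttgattc, far shorter than a sequenced read of 150 bases. Of the 1850 distinct 50-base windows in Fkbp1a transcripts, 3 also occurred in the pseudogene Fkbp1a-ps1, and none of the 975 windows of Fkbp1b occurred in another gene. Of the 50-base windows of Fkbp8, 6.55% occurred in 1 or more of 25 other genes. Another 3 members share exon sequence with a neighbour on the opposite strand: Fkbp3 with Prpf39 over 305 bases (32.2% of its exons), Fkbp8 with Kxd1 over 224 bases (4.95%) and Fkbp10 with Nt5c3b over 193 bases (6.58%). The counting did not use strand, so read pairs that lie in those stretches could not be told apart between the neighbours. Whether such pairs were left unassigned was not checked, and the levels of these genes may rest on the remainder.

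Promoter sequences are shown for Fkbp1a, Fkbp1b, Fkbp2 and Fkbp8, since 3 of these 4 genes passed the test described below. Each is a window of 300 bases that holds a RefSeq start site near its end (GRCm38.p6), with GC boxes (GGGCGG) and CCAAT boxes, searched on both strands, in capitals.
Fkbp1a, plus strand, chr2:151542233-151542532: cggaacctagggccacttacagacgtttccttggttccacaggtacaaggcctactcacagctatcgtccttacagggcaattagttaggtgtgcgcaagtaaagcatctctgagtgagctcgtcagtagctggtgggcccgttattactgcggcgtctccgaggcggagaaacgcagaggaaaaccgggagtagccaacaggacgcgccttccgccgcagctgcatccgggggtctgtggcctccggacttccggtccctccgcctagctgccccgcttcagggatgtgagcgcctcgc
Fkbp1b, minus strand, chr12:4841524-4841823: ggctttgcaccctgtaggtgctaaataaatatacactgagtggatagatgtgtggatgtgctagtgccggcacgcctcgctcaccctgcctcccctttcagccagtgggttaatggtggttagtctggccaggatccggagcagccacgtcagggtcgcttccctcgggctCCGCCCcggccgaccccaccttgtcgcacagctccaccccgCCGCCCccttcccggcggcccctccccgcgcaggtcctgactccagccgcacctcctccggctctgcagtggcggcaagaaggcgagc
Fkbp2, minus strand, chr19:6980415-6980714: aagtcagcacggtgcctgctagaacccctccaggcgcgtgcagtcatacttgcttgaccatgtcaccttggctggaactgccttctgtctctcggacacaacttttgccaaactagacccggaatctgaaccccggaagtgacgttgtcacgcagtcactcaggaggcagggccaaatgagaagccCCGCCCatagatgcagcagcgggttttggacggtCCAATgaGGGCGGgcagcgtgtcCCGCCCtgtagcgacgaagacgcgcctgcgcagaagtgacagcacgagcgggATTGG
Fkbp8, plus strand, chr8:70527493-70527792: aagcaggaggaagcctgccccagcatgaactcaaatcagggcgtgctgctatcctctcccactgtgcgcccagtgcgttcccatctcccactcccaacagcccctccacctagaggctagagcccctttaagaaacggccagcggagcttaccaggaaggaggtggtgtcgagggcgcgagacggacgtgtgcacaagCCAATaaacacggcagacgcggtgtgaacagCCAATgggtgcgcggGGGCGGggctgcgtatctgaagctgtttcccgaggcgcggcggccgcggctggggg
RefSeq windows matched 9 of the 10 genes. A GC box was found for 8 of the 9, all but Fkbp1a, against 35.7% of all 32851 mouse promoter windows, and a CCAAT box for 5 of the 9 against 37.4%. GC content ran from 57.0% to 70.7% over the 11 windows of these genes, against a median of 52.7% over all windows. The heat shock element GAANNTTC was found only before Fkbp4 (7.86% of all windows) and a YY1 site only before Fkbp3 (0.633%). The letters of a TATA box (TATAAA, 13.6% of all windows), an E-box (CACGTG, 7.15%), a cyclic AMP response element (TGACGTCA, 1.79%) and an NRF1 site (0.971%) were in none of the 11. These are letter matches only and say nothing of which factors bind.

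The libraries held 16393501 to 20593089 counted read pairs. Levels below are CPM, a gene's read pairs divided by its library's total after TMM scaling, and the word level always means CPM unless RPKM, which also divides by exon length, is named. The library labelled male rapamycin 4 held 9935 Xist read pairs and 0 from the Y-linked genes checked, whereas the other 7 libraries labelled male held at most 17 Xist and at least 1915 Y-linked read pairs. Male vehicle 4 had 2958 CPM summed over 8 choroid plexus markers, against 175.1 to 683.6 in the libraries of the other 3 groups. Female rapamycin 1, female rapamycin 2 and male rapamycin 2 stood apart in exon length slope, the change in a library's log2 CPM relative to the other libraries for each doubling of exon length. Their slopes ran from -0.13 to -0.12, against -0.03 to 0.06 in the other 5 rapamycin libraries and 0.00 to 0.10 in the vehicle libraries. Mitochondrial transcripts made up 6.88% to 6.99% of these 3 libraries, 3.76% to 5.08% of the other rapamycin libraries and 2.64% to 5.47% of the vehicle libraries.

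In both sexes together, Fkbp1b, Fkbp2, Fkbp8 and Fkbp10 were higher with rapamycin, by 1.21 to 1.35 times. These were 4 of the 10 members at an adjusted p under 0.05, all higher and none lower, where 6.46% of all tested genes were called higher, 6.86% lower and 13.3% in either direction. No member combined an adjusted p under 0.05 with a fold change of at least 1.5, which 2.26% of genes did. At an unadjusted p under 0.05 there were 6 members, where 30.4% of genes were. The fitted log2 fold change was above 0 for 9 of the 10 members and for 52.3% of all genes. Its median was 0.28 over the members against 0.02 over all genes. The 4 calls did not hold without the 3 libraries of low exon length slope, where 0 members and 1 gene in all were called, nor with that slope as a covariate, where 0 members and 0 genes were. The part of the library differences in the result was not tested further, and in bulk cortex a shift in cell numbers and a shift in RNA per cell cannot be told apart.

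**Figure D1:**
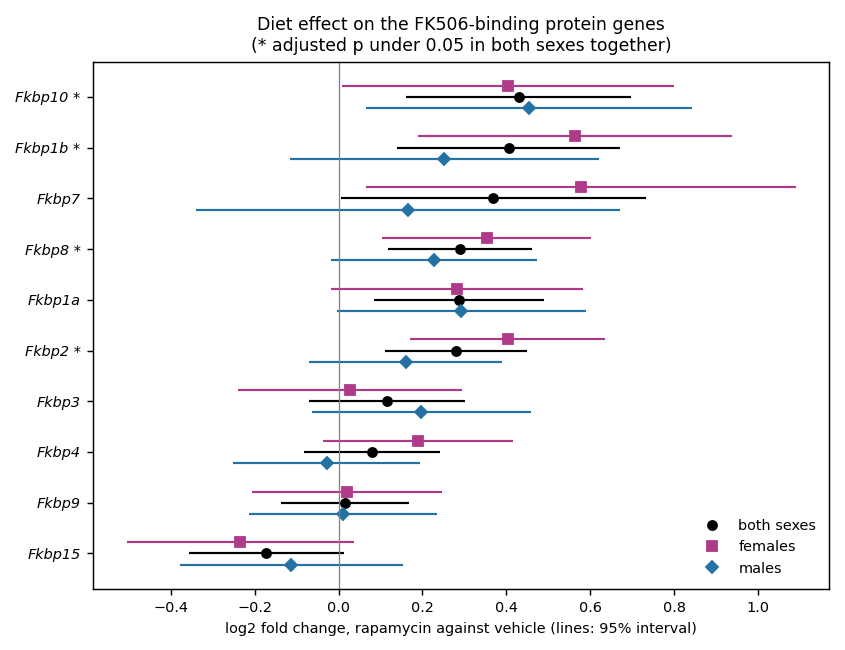
Log2 fold change of each member, rapamycin against vehicle (x axis), from edgeR fits with batch, for both sexes together (circles), females (squares) and males (diamonds), with lines for the 95% interval. Fkbp10 (0.43) and Fkbp1b (0.41) had the highest estimates in both sexes together and Fkbp15 (-0.17) was the only one below 0.

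Fkbp1a encodes FKBP12, the small cytosolic protein through which rapamycin reaches mTOR. Its level was 492.3, 423.1, 502.8 and 330.9 CPM in female vehicle 1 to 4 and 643.3, 541.3, 303.7 and 475.0 CPM in female rapamycin 1, 2, 4 and 5. In males it was 403.8, 402.5, 380.5 and 327.7 CPM in vehicle 1 to 4 and 470.3, 628.9, 461.8 and 326.6 CPM in rapamycin 1 to 4. The diets overlapped: 3 of 8 rapamycin libraries lay above every vehicle library and 2 lay below every vehicle library. The 3 highest levels of all 16 libraries were those of the 3 libraries with low exon length slope. The log2 fold change of Fkbp1a was 0.29 (SE 0.10), which missed the threshold in edgeR's quasi-likelihood test after Benjamini-Hochberg adjustment (adjusted p = 0.0555), and the unadjusted two-sided exact permutation test within batches gave p = 0.0305. The estimate for batch 2 against batch 1 was -0.52 log2 units (SE 0.11, edgeR adjusted p = 0.00144). The rapamycin difference in mean log2 CPM was 0.33 within batch 1 and 0.13 within batch 2, without adjustment for sex. The within-batch differences of other members were taken likewise, and batch 2 held only 5 libraries.

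Fkbp1b encodes FKBP12.6, which binds rapamycin as FKBP12 does and is best known as a subunit of ryanodine receptors, the calcium release channels of the ER. It measured 20.6, 19.2, 10.4 and 13.5 CPM in female vehicle 1 to 4, and 25.2, 28.4, 16.2 and 20.5 CPM in female rapamycin 1, 2, 4 and 5. Male vehicle 1 to 4 held 19.8, 18.4, 19.2 and 17.5 CPM, and male rapamycin 1 to 4 held 20.9, 26.7, 20.9 and 20.6 CPM. All 4 libraries labelled male rapamycin, including the library labelled male rapamycin 4, which held Xist but no Y-linked read pairs, lay above the 4 male vehicle libraries. The female groups overlapped. Fkbp1b rose by 0.41 log2 units (SE 0.13, edgeR adjusted p = 0.0424), and the exact permutation test gave p = 0.00368, unadjusted. The difference was 0.47 within batch 1 and 0.30 within batch 2. It was 0.22 (edgeR adjusted p = 0.548) without the 3 libraries of low slope and -0.05 (adjusted p = 0.981) with the slope as a covariate.

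**Figure D2:**
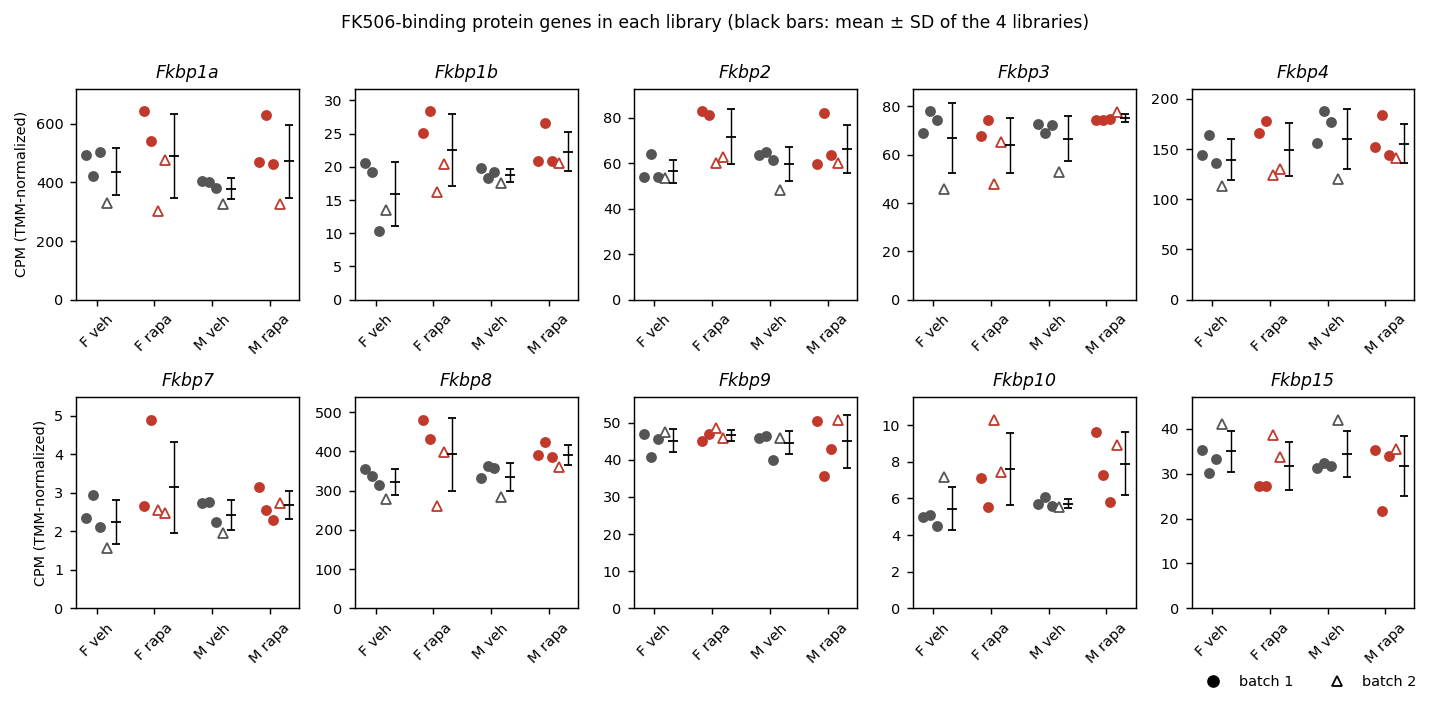
Level of each member in CPM (y axis, starting at 0) in every library, by sex and diet, with filled circles for batch 1, open triangles for batch 2, and black bars for the mean and SD of the 4 libraries of a group. In Fkbp1a all 5 open triangles sit under the filled circles of their group, and in Fkbp2 3 rapamycin libraries at 81.1 to 83.0 CPM stand above all others.

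Fkbp3 encodes FKBP25, a nuclear FKBP that binds rapamycin and nucleic acids. Its level ran from 46.0 through a median of 70.7 to 78.1 CPM over the 8 vehicle libraries and from 48.0 through 74.3 to 77.9 CPM over the 8 rapamycin libraries. The ranges nearly coincided, and the log2 fold change was 0.11 with a 95% interval from -0.07 to 0.30 (edgeR adjusted p = 0.407). Fkbp3 was the steadiest member within batch 1, with a coefficient of variation of 4.24% over 11 libraries, and fell by 0.34 log2 units in batch 2 (adjusted p = 0.011). Of its exon sequence 32.2% is shared with Prpf39, as given above.

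Fkbp4 encodes FKBP52, a co-chaperone that sits on Hsp90 and promotes the activity of steroid receptors. It ran from 113.7 through 149.8 to 187.8 CPM with vehicle and from 124.6 through 148.0 to 183.9 CPM with rapamycin. The log2 fold change was 0.08, with an interval from -0.08 to 0.24 (edgeR adjusted p = 0.523). Changes beyond -5.61% or 18.2% lay outside that interval. Fkbp4 was lower in batch 2 by 0.37 log2 units (adjusted p = 0.00307).

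Fkbp8 encodes FKBP38, an FKBP anchored in the outer mitochondrial membrane that binds Bcl-2 and takes part in mitophagy. Female vehicle 1 to 4 measured 355.7, 337.8, 313.5 and 277.9 CPM, and female rapamycin 1, 2, 4 and 5 measured 479.9, 430.2, 261.1 and 397.1 CPM. Male vehicle 1 to 4 measured 332.7, 363.5, 358.2 and 284.5 CPM, and male rapamycin 1 to 4 measured 390.8, 424.7, 385.5 and 360.6 CPM. Of the 8 rapamycin libraries 6 lay above the highest vehicle library, and 1, female rapamycin 4, lay below the lowest. Fkbp8 rose by 0.29 log2 units (SE 0.08, edgeR adjusted p = 0.0294), with p = 0.00433 in the unadjusted exact permutation test. The difference was 0.29 within batch 1, where it was 0.44 in females and 0.19 in males, and 0.25 within the 5 libraries of batch 2. Without the 3 libraries of low slope it was 0.20 (edgeR adjusted p = 0.406), and with the slope as a covariate 0.03 (adjusted p = 0.984).

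Fkbp2 encodes FKBP13, a small folding enzyme of the ER. Its level was 54.2, 64.1, 53.8 and 53.7 CPM in female vehicle 1 to 4 and 83.0, 81.1, 60.1 and 62.9 CPM in female rapamycin 1, 2, 4 and 5. In males it was 63.8, 64.8, 61.6 and 48.4 CPM in vehicle 1 to 4 and 59.6, 82.0, 63.6 and 60.2 CPM in rapamycin 1 to 4. All 8 rapamycin libraries lay above the vehicle median of 57.9 CPM, but only the 3 libraries of low slope lay above the highest vehicle library. Fkbp2 rose by 0.28 log2 units (SE 0.08, edgeR adjusted p = 0.031) and gave p = 0.0039 in the unadjusted exact permutation test. Within batch 1 the difference was 0.28 and within batch 2 it was 0.26. It was 0.13 without the 3 libraries (edgeR adjusted p = 0.553) and 0.02 with the slope as a covariate (adjusted p = 0.991).

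Fkbp10 encodes FKBP65, an ER chaperone for procollagen whose loss causes a brittle bone disease. It was among the least abundant members, with 83 to 186 read pairs a library. Female vehicle 1 to 4 held 4.98, 5.09, 4.52 and 7.15 CPM, and female rapamycin 1, 2, 4 and 5 held 7.14, 5.55, 10.3 and 7.46 CPM. Male vehicle 1 to 4 held 5.71, 6.06, 5.59 and 5.54 CPM, and male rapamycin 1 to 4 held 9.61, 7.29, 5.79 and 8.91 CPM. Of the 8 rapamycin libraries 5 exceeded the highest vehicle library, and none fell below the lowest. Fkbp10 rose by 0.43 log2 units (SE 0.13, edgeR adjusted p = 0.0351), with p = 0.00368 in the unadjusted exact permutation test, by 0.38 within batch 1 and 0.48 within batch 2.

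For Fkbp10 the libraries of low slope did not hold the highest levels. The 3 libraries of low slope held 5.55 to 7.29 CPM of Fkbp10 and none was among its 3 highest, whereas for Fkbp1b, Fkbp2 and Fkbp8 they were the 3 highest. The estimate for Fkbp10 was 0.49 without them (edgeR adjusted p = 0.227) and 0.54 with the slope as a covariate (adjusted p = 0.769). The 8 leptomeningeal and fibroblast markers, cells that make collagen, summed to 86.6 to 230.2 CPM with vehicle and 65.9 to 213.4 CPM with rapamycin, none of the 8 passed the test, and their median log2 fold change was -0.24. None of those 8 markers was at 0 in any library.

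**Figure D3:**
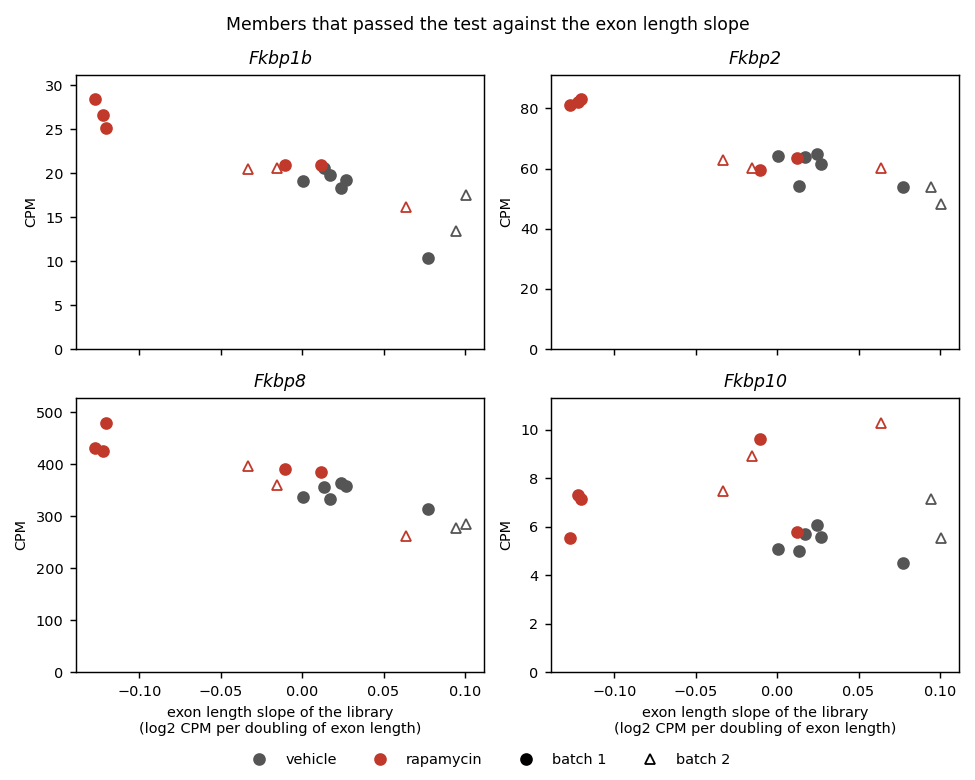
Level in CPM (y axis) of the 4 members that passed the test against the exon length slope of each library (x axis, log2 CPM per doubling of exon length), with diet by color and batch by symbol. For Fkbp1b, Fkbp2 and Fkbp8 the 3 rapamycin libraries at slopes of -0.13 to -0.12 are the highest points, while for Fkbp10 they lie between 5.55 and 7.29 CPM, under female rapamycin 4 at 10.3 CPM.

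Fkbp7 encodes FKBP23, an ER partner of the chaperone BiP, and was the least abundant member with 26 to 90 read pairs a library. It ran from 1.56 through 2.30 to 2.94 CPM with vehicle and from 2.29 through 2.60 to 4.89 CPM with rapamycin. Female rapamycin 2, at 4.89 CPM, held the highest level, and the next highest library held 3.15 CPM. The log2 fold change was 0.37 (SE 0.17, edgeR adjusted p = 0.157, unadjusted exact permutation p = 0.0227), and 0.22 (adjusted p = 0.409) when female rapamycin 2 was left out.

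Fkbp9, an ER FKBP with several isomerase domains, varied least of all members, with a coefficient of variation of 8.56% over the 16 libraries. It ran from 40.0 through 45.9 to 47.4 CPM with vehicle and from 35.6 through 46.5 to 50.7 CPM with rapamycin. Its log2 fold change was 0.02 with an interval from -0.14 to 0.17 (edgeR adjusted p = 0.911). Changes beyond -9.11% or 12.4% were outside that interval.

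Fkbp15 encodes FKBP133, also called WAFL, a long protein linked to endosomes and the actin cytoskeleton of growth cones. It was the only member with a negative estimate, running from 30.2 through 32.9 to 42.0 CPM with vehicle and from 21.8 through 33.9 to 38.6 CPM with rapamycin. The medians differed in the opposite direction to the fitted change. The 3 libraries of low slope were the 3 lowest of all 16, at 21.8 to 27.4 CPM, and the other 5 rapamycin libraries lay between 33.7 and 38.6 CPM. The log2 fold change was -0.17 (SE 0.09, edgeR adjusted p = 0.195), and the exact permutation p was 0.039, unadjusted. It was -0.05 without those 3 libraries (edgeR adjusted p = 0.841) and 0.10 with the slope as a covariate (adjusted p = 0.954). Fkbp15 was higher in batch 2 by 0.33 log2 units (adjusted p = 0.011).

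Across the family, the calls for diet depended on single libraries and on the terms of the fit. With 1 library left out at a time, Fkbp1b passed the test in 6 of 16 fits, Fkbp8 in 8, Fkbp2 and Fkbp10 in 9 each and Fkbp1a in 2, and their estimates stayed positive, between 0.23 and 0.48. Among the 10 members 6 differed between batches at an adjusted p under 0.05, where 35.5% of all genes did, with Fkbp1a, Fkbp2, Fkbp3, Fkbp4 and Fkbp8 lower and Fkbp15 higher in batch 2. With batch left out of the fit, 0 members and 142 of 16553 genes passed the test for diet. The median of the members' estimates was then 0.25. DESeq2 with the same terms called 5 members, adding Fkbp1a (adjusted p = 0.0326), and 3131 of 16549 genes. DESeq2 with diet as its only term called Fkbp10 alone among the members, and 1133 of 16553 genes. The unadjusted exact permutation tests within batches used all 4620 assignments, with a smallest possible p of 0.000216, and were run for the members only.

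The question of a sex difference was addressed by fitting each sex and then the difference between them. In females 0 members were called, where 0.0121% of genes (2 of 16553) were, and 5 members had an unadjusted p under 0.05, where 23.1% of genes did. The largest female estimates were 0.58 for Fkbp7 (edgeR adjusted p = 0.165), 0.56 for Fkbp1b (adjusted p = 0.0866) and 0.40 for both Fkbp2 (adjusted p = 0.0713) and Fkbp10 (adjusted p = 0.208). In males 0 members and 0 genes were called (0%), and only Fkbp10, with an estimate of 0.45 (edgeR adjusted p = 0.373), had an unadjusted p under 0.05, where 1990 of 16553 genes (12%) did. DESeq2 with the same terms called 3 members in females (Fkbp1b, Fkbp2 and Fkbp8), where it called 1503 of 16548 genes. It called 0 members in males (27 genes in all), in the interaction (0 genes) and between the sexes on the vehicle diet (9 genes). The median estimate over the 10 members was 0.32 in females and 0.18 in males, against 0.02 and 0.01 over all genes. The sexes were not shown to differ: the interaction of sex and diet gave 0 members called (0% of genes), 0 members at an unadjusted p under 0.05 (2.17% of genes) and estimates from -0.17 for Fkbp3 to 0.41 for Fkbp7, the latter with an interval from -0.30 to 1.13. The smallest interaction p was that of Fkbp2, with an estimate of 0.24 higher in females and an interval from -0.08 to 0.57 (edgeR adjusted p = 0.999). One of the 4 rapamycin libraries behind the male values is the library labelled male rapamycin 4. With both that library and male vehicle 4 left out the male median was 0.09, and 0 members and 0 genes were called. On the vehicle diet females and males differed in 0 members, where 0.0121% of genes differed, and 0 members had an unadjusted p under 0.05, where 3.55% of genes did, with estimates from -0.24 for Fkbp1b to 0.19 for Fkbp1a.

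Levels between genes were compared per kilobase of exon (RPKM). Fkbp1a was highest at 115.3 ± 26.7 RPKM (SD, n = 16), followed by Fkbp2 at 95.9 ± 15.5, Fkbp8 at 79.4 ± 13.01, Fkbp3 at 72.0 ± 10.8 and Fkbp4 at 54.1 ± 8.35. Fkbp1b stood at 20.3 ± 4.60 RPKM, Fkbp9 at 13.7 ± 1.17, Fkbp15 at 4.42 ± 0.69, Fkbp10 at 2.27 ± 0.58 and Fkbp7 at 1.77 ± 0.48. The ranges of neighbours in this order overlapped everywhere except between Fkbp4 and Fkbp1b and between Fkbp9 and Fkbp15. Within single libraries, however, Fkbp2 exceeded Fkbp8 and Fkbp3 exceeded Fkbp4 in all 16, Fkbp1a exceeded Fkbp2 in 14, and Fkbp8 exceeded Fkbp3 in 12. The receptor for rapamycin was thus at the 97.8th percentile of tested genes by RPKM, and Fkbp7 at the 31.5th. The order depends on the length used. Per kilobase of the longest protein-coding transcript, Fkbp1a stayed first at 268.2 CPM a kilobase and Fkbp8 followed at 199.9. Fkbp2 dropped to the fifth place at 41.6 CPM a kilobase. Its read pairs were counted over 663 bases of exon, however, whereas that transcript has 1526 bases. This value therefore divides by bases that were not counted. The RPKM of Fkbp3 divides by 947 bases, 305 of them shared with Prpf39, where read pairs may not have been counted. Its RPKM and its place in the RPKM order may therefore be too low.

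**Figure D4:**
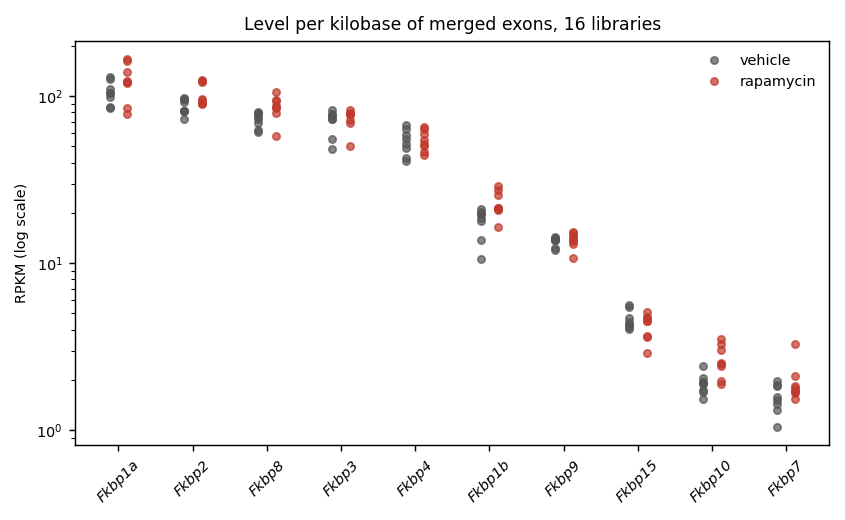
Level per kilobase of merged exons (RPKM, log scale on the y axis) of each member in the 16 libraries, ordered by mean, with vehicle in grey and rapamycin in red. Gaps without overlap are seen between Fkbp4 (at least 40.7 RPKM) and Fkbp1b (at most 29.0 RPKM) and between Fkbp9 (at least 10.8 RPKM) and Fkbp15 (at most 5.59 RPKM).

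The rest of the family was read from a list of 7 genes, of which 5 were tested. Fkbp14, an ER FKBP that acts on collagens, rose by 0.37 log2 units (SE 0.09, edgeR adjusted p = 0.0204), from 8.36 ± 0.67 to 10.6 ± 1.40 CPM (SD, n = 8 each). Fkbp5, which encodes FKBP51, the glucocorticoid-induced antagonist of FKBP52 on Hsp90, measured 29.7 ± 1.98 CPM with vehicle and 36.5 ± 12.7 CPM with rapamycin, an estimate of 0.29 (adjusted p = 0.163). The median of the 5 was 0.32. Fkbp6 and Aipl1 had at most 2 and 3 read pairs in a library and were not tested.

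The targets of drug-bound FKBPs were read from 9 genes of mTOR complex 1 and calcineurin, with a median of -0.03. Of these 2 fell, where 6.86% of all genes fell, and 0 rose: Mtor, the kinase itself, by 0.38 log2 units (SE 0.10, edgeR adjusted p = 0.0208), and Rptor, which encodes the raptor scaffold, by 0.26 (SE 0.07, adjusted p = 0.0256). Mlst8, a further core subunit, had an estimate of -0.18 (adjusted p = 0.181). The calcineurin genes Ppp3ca and Ppp3r1 had estimates of -0.03 (adjusted p = 0.855) and 0.13 (adjusted p = 0.373). The 11 genes for calcium release channels and TGF-beta family type I receptors, which FKBP12 or FKBP12.6 bind, had a median of -0.16. Among them 0 rose and 3 fell, where 6.86% of all genes fell. The 3 that fell were Itpr1, the inositol trisphosphate receptor, by 0.63 (SE 0.14, edgeR adjusted p = 0.0145), Ryr2, a ryanodine receptor, by 0.48 (SE 0.12, adjusted p = 0.0212), and the activin receptor Acvr1b by 0.22 (SE 0.07, adjusted p = 0.0372).

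Partners of the larger FKBPs were read by compartment, beside 6.46% of all tested genes called higher and 6.86% called lower. Among 17 Hsp90 and steroid receptor partners of FKBP52, 2 fell and 0 rose. Nr3c1, the glucocorticoid receptor, fell by 0.45 log2 units (SE 0.11, edgeR adjusted p = 0.0195), and Hsp90ab1 had an estimate of -0.08 (adjusted p = 0.54). Among 12 mitochondrial and survival partners of FKBP38, 2 rose and 0 fell: Fis1, a mitochondrial fission protein, by 0.43 (SE 0.10, edgeR adjusted p = 0.0156), and Phb2, a prohibitin and mitophagy receptor, by 0.26 (SE 0.08, adjusted p = 0.0377). Of 22 ER folding and collagen partners, 2 rose and 0 fell, Pdia4, a disulfide isomerase, by 0.46 (SE 0.13, edgeR adjusted p = 0.0322) and Ppib, the ER cyclophilin, by 0.34 (SE 0.08, adjusted p = 0.0153). Of 19 cyclophilins and parvulins, the other prolyl isomerase families, 2 rose and 1 fell. Ppib is in that list as well, Ppif, the cyclophilin of the mitochondrial matrix, rose by 0.30 (SE 0.09, edgeR adjusted p = 0.0393), and Ranbp2, a very long nuclear pore protein, fell by 0.55 (SE 0.12, adjusted p = 0.0129). The median over each of these 4 lists was -0.06, 0.14, 0.02 and 0.15, beside 0.02 over all genes. With the exon length slope as a covariate no gene of any partner list was called, Mtor, Rptor, Itpr1, Ryr2 and Acvr1b included, as 0 genes were called in all.

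**Figure D5:**
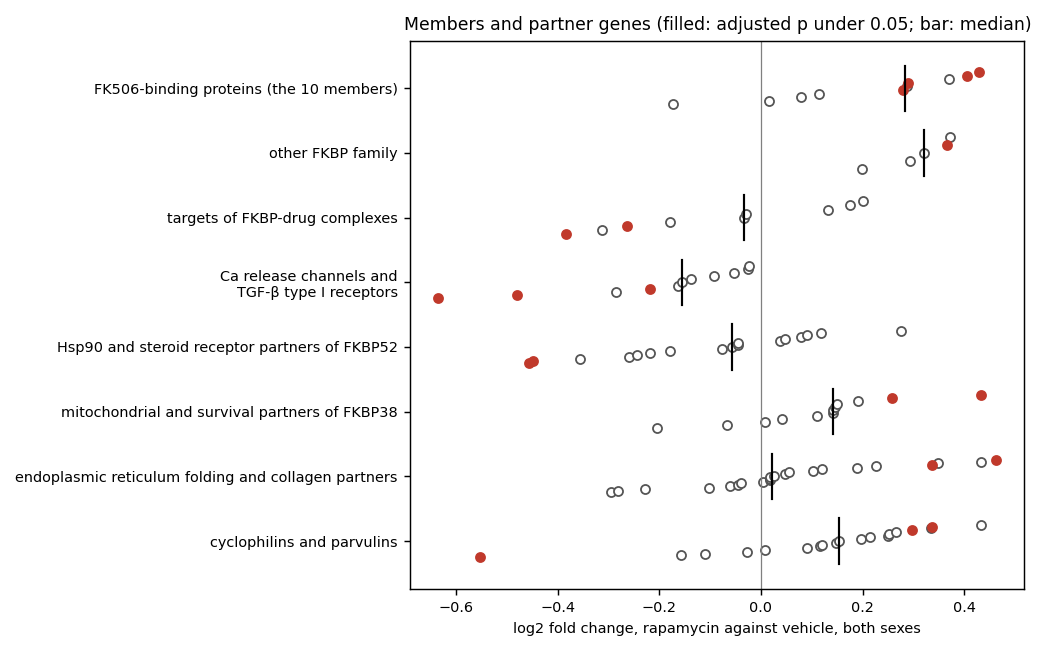
Log2 fold change, rapamycin against vehicle in both sexes (x axis), of the 10 members and of each tested gene in 7 partner lists, with filled points for genes at an adjusted p under 0.05 and bars for list medians. The members' median is 0.28 and that of the calcium channel and receptor list is -0.16, where every point lies at or below -0.02.

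Cell type markers gave the following beside these results, where 6.46% of all tested genes were called higher and 6.86% lower. Of 8 choroid plexus markers 2 fell (Kcnj13 and Aqp1) with a median of -1.42, and their sum ran from 191.7 to 2958 CPM with vehicle and from 175.1 to 447.9 CPM with rapamycin. Of 7 endothelial markers 2 rose (Ly6c1 and Slc2a1), but the median of the 7 was 0.05. The 7 summed to 300.7 to 428.5 CPM with vehicle and 335.9 to 502.4 CPM with rapamycin. Of 7 astrocyte markers 1 rose (Aldoc), with a median of 0.25 over the list, but Gfap (-0.42), Aqp4 (-0.23) and Slc1a2 (-0.07) had estimates below 0. Together these 7 markers summed to 4548 to 6561 CPM with vehicle and 4184 to 7072 CPM with rapamycin. Of 8 cortical glutamatergic markers 1 fell, and none of the 7 GABAergic, 7 oligodendrocyte or 8 microglial markers passed the test. The part of cell composition in the results for Fkbp1b, Fkbp2, Fkbp8 and Fkbp10 was not tested. Glutamatergic markers were at 650 read pairs or more in every library, as the cortex label implies.

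Each member's nearest pattern was sought over the 16 libraries among 14680 other genes, as the Pearson correlation of log2 CPM with batch means removed. The values are descriptions, since the libraries share diets, sexes and depth and differ in exon length slope. For Fkbp1a the 3 nearest were Sub1 (r = 0.94), Sh3gl3 (0.93) and Olfm1 (0.92), where 1% of all genes exceeded 0.81. Fkbp8 had the closest partner of all, Pebp1 (0.98), where 1% of all genes exceeded 0.91. Fkbp1b paired with Plvap (0.96, 1% of genes over 0.88), Fkbp2 with 0610037L13Rik (0.96, 1% over 0.86) and Fkbp15 with Gm26833 (0.92, 1% over 0.84). With batch means kept, r of Fkbp2 and 0610037L13Rik was 0.45. Fkbp3 was nearest to Laptm4b (0.90), Fkbp10 to Acsf2 (0.89), Fkbp4 to Idh3b (0.88), Fkbp7 to Papss1 (0.87) and Fkbp9 to Snora28 (0.82).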

How the data were processed

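Messenger RNA was enriched with oligo(dT) from cortex and sequenced as 150-base read pairs on an Illumina HiSeq instrument. Per the labels and the study's methods, the authors trimmed reads, aligned them with HISAT2 2.2.1 to mm10 and deposited raw read-pair counts per gene from featureCounts 2.0.3, without strand and without normalization. The submitters' processing notes also name FastQC 0.11.9, Trimmomatic 0.39 and Trim Galore. The labels give 4 biological replicates per group, and the study's figure legends for these data also give 4 mice per group. The study's text instead describes pooled cortical samples and another number of independent samples per condition. The edgeR p-values rest on the spread between labelled samples that the terms of the fit leave, estimated over all 16 libraries together. Whether a labelled sample is a single mouse or a pool cannot be told from these accounts. The 4 group tables and the full table held the same counts.

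The counts were analysed in R 4.3.3 with edgeR 4.0.16: filterByExpr (minimum count 10), TMM scaling, a quasi-likelihood fit over all 16553 tested genes with sex and batch (both sexes) or group and batch (sexes, interaction), and Benjamini-Hochberg adjustment over all tested genes. Called means an adjusted p under 0.05. The filter passed all 10 members. RPKM used the deposited merged exon length. Two-sided exact permutation tests exchanged diets within batches. DESeq2 1.42.0, another scaling, other terms, no filter, batch 1 alone, a replicate block and leaving out each library were alternatives, and leaving out the 3 libraries of low slope, leaving out male vehicle 4 together with the library labelled male rapamycin 4, and transcript length were added after seeing the data. The fit was tested on simulated data. The members and gene lists were chosen with earlier results of these data known. All 10 members are named in every comparison, with each partner-list gene at an adjusted p under 0.05 (some items are not reported here), 8 partner genes named whatever their values (Fkbp5, Mtor, Rptor, Mlst8, Ppp3ca, Ppp3r1, Hsp90ab1 and Nr3c1) and each member's nearest gene (3 for Fkbp1a). Libraries of 1 group differed by more than sampling noise. Lists for striatum (7 genes) and blood (5 genes) had 0 called, with medians of 0.06 and 0.72. Figures were drawn with matplotlib 3.10.9 in Python 3.11.15. Protein sequences were not used here.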

Additional observations from a re-analysis of the deposited data

Results flagged for a closer look

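Within groups of 4 libraries, 7 of 40 tests of a member's level had 1 library far from the other 3, where chance gives about 2 if the 4 libraries of a group are alike. Fkbp1b was at 26.7 CPM in male rapamycin 2, against 20.6 to 20.9 CPM in the others. Fkbp2 was at 64.1 CPM in female vehicle 2, against 53.7 to 54.2 CPM. Fkbp3 was at 77.9 CPM in the library labelled male rapamycin 4, against 74.3 to 74.8 CPM. Fkbp7 was at 4.89 CPM in female rapamycin 2, against 2.47 to 2.65 CPM. Fkbp9 was at 40.0 CPM in male vehicle 3, against 45.8 to 46.5 CPM. Fkbp15 was high in male vehicle 4, at 42.0 CPM against 31.4 to 32.4 CPM, and low in male rapamycin 2, at 21.8 CPM against 34.0 to 35.6 CPM. Male rapamycin 2 and female rapamycin 2 are among the 3 libraries of lowest exon length slope. Male vehicle 4, which has the most choroid plexus transcripts, and the library labelled male rapamycin 4 are the only batch 2 libraries of their groups. Fkbp15 was 0.33 log2 units higher in batch 2, the direction of its high level in male vehicle 4. Fkbp3 differed by -0.34 in batch 2, opposite to its high level in the library labelled male rapamycin 4. The part of these in the values above was not tested.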

How the results depend on the processing

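In both sexes together 4 members and 2205 genes were called. The count of members was also 4 with DESeq2-type scaling and with no filter, and 5 with DESeq2 on the same terms (3131 genes). It was 0 with no batch term (142 genes), with the exon length slope as a covariate (0 genes), with the mitochondrial share as a covariate (0 genes), without the 3 libraries of lowest exon length slope (1 gene) and with male vehicle 4 left out along with the library labelled male rapamycin 4 (1040 genes). It was 2 in batch 1 alone (1240 genes) and 1 in DESeq2 with diet as the only term (1133 genes). Leaving out 1 library at a time gave 0 to 5 members and 719 to 3352 genes: 0 without female rapamycin 1 or male rapamycin 2, 1 without female vehicle 2 or 3, female rapamycin 2 or 5, or male vehicle 4, 2 without female vehicle 1 or 4, 3 without any of male vehicle 1 to 3, male rapamycin 1 or the library labelled male rapamycin 4, and 5 without female rapamycin 4 or male rapamycin 3. The estimate for Fkbp1b was -0.051 with the slope as a covariate. In females, where 0 were called, no filter gave 1 (1678 genes), batch 1 alone 2 (1290 genes) and DESeq2 3 (1503 genes), and leaving out 1 library gave 0 to 3, with 3 without female rapamycin 4 (2104 genes) and 1 without male rapamycin 2 (462 genes). Fewer libraries or more terms can leave less power. In both sexes together the counts fell with no batch term and rose without female rapamycin 4 or male rapamycin 3. The cause of these differences was not tested.

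Replicate numbers are shared between groups, and the labels do not say what they mark. Of 21 same-numbered pairs of libraries 18 correlated above 0.1, with r from -0.16 to 0.67. Of 16 libraries 12 correlated best with a library of their own number, a hint of shared structure. Batch was left in these values, however, and every library numbered 4 is of batch 2. Pairs numbered 4 had r from 0.35 to 0.67, and pairs of batch 1 had r from -0.16 to 0.51. Number and batch cannot be fully told apart here. Since not every pair was above 0.1 and the labels name no shared origin, the numbers were not used as pairs in the main comparison. With the replicate block in place of batch, 0 members and 1298 genes were called, with adjusted p from 0.0531 (Fkbp2) to 0.0725 (Fkbp1b) for the 4 members. Fkbp7, at 26 to 90 read pairs a library, and Fkbp10, at 83 to 186, are the members whose depth limits them most.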
